A study of Mus musculus with 12 samples.

Results

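The 10 genes described here encode proteins that place or read N6-methyladenosine (m6A), a methyl mark on adenosines of mRNA, outside the catalytic core of the writer, the YTH readers and the erasers. The rule takes them by gene symbol and uses no measured value, although it was set with earlier results of these data known. They are Virma, Zc3h13, Cbll1, Rbm15 and Rbm15b, the partners of the writer complex, Mettl16, a methyltransferase of its own, Hnrnpc and Hnrnpa2b1, nuclear readers of the heterogeneous nuclear ribonucleoprotein (hnRNP) family, and Igf2bp2 and Fmr1, cytoplasmic readers. All 10 were among the 16920 genes in the tables, and all 10 passed the filter on low counts, which left 12064 genes for testing.

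The study sequenced mRNA of mouse peritoneal macrophages in 12 libraries, with 4 groups of 3. Donors were wild-type (WT) or Ythdf1-/- mice, made with CRISPR/Cas9 and called KO-labelled here, both on a C57BL/6 background and 6 to 10 weeks old. The cells were cultured overnight and then kept for 6 h with PBS or with 1 µg/mL of lipopolysaccharide (LPS), the outer-membrane component of Gram-negative bacteria that macrophages sense through TLR4. The comparisons ask how the response to LPS, and the resting state, differ where Ythdf1, a YTH reader of m6A, is labelled as deleted. The sources differ on the eliciting agent (starch broth in the series record, thioglycollate in the methods).

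The m6A writer is a heterodimer of METTL3 and METTL14 held by WTAP, and a larger regulatory assembly brings it to its targets. VIRMA (also called KIAA1429) is the scaffold of that assembly, ZC3H13 holds it in the nucleus, CBLL1 (Hakai) is an E3 ubiquitin ligase within it, and RBM15 and RBM15B bind RNA and recruit the writer, including to the Xist RNA. METTL16 works apart from this complex: it methylates the U6 small nuclear RNA and hairpins of the Mat2a mRNA, by which the cell tunes its supply of S-adenosylmethionine (SAM), the methyl donor. HNRNPC and HNRNPA2B1 are abundant nuclear RNA-binding proteins of splicing and RNA export whose binding m6A can favour. IGF2BP2 stabilises target mRNAs in the cytoplasm, and FMRP, the product of Fmr1, binds mRNAs on polyribosomes and restrains their translation. Loss of FMRP causes fragile X syndrome.

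The promoters of Igf2bp2 and Fmr1 are shown because these genes carried the largest LPS changes of the 10. They are from RefSeq, build GRCm38.p6, each from 250 bases before to 50 after the annotated start, and 9 of the 10 genes had an entry, with 12 promoters in all. Virma had none. Igf2bp2 lies on the minus strand of chromosome 16 and Fmr1 on the plus strand of chromosome X. Capitals mark the letters of the NRF1 motif.
Igf2bp2 (chr16:22163250-22163549, minus strand): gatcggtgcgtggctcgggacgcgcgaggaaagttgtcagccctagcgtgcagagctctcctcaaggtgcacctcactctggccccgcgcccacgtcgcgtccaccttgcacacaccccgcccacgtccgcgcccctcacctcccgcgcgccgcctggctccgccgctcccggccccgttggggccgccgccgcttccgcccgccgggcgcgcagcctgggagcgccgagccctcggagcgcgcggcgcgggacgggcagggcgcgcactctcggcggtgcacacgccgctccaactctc
Fmr1 (chrX:68678291-68678590, plus strand): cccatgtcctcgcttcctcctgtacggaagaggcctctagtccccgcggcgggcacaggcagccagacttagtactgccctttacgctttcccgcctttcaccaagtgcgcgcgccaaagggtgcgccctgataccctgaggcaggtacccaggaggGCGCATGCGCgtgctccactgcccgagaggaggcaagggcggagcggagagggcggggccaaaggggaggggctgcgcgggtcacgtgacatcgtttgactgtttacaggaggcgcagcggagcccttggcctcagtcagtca
Both windows were rich in G and C. The Igf2bp2 promoter was 76.7% GC with 47 CpG dinucleotides and the Fmr1 promoter 65.7% GC with 24, against a median of 52.7% GC and 7 CpG over 32851 mouse promoters of the same length. Both strands were searched for GGNNTTTCC (kappaB), AAANNGAAA (ISRE), TGANTCA (AP-1), TGACGTCA (CRE), CCGGAAG (ETS) and GCATGCGC (NRF1), which 5.82%, 10.6%, 7.81%, 1.79%, 8.86% and 2.71% of all promoters hold. The NRF1 letters stood in the Fmr1 promoter at positions -93 and -91 from the start, overlapping each other on opposite strands. None of the 6 was in the Igf2bp2 window, which says only that these letters are not there. The ETS letters were in the promoters of Zc3h13 and Cbll1 and in the second promoter of Fmr1, where the ISRE letters (at 23) and both NRF1 matches were also found.

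Totals ran from 21546274 to 22017005 counts per library, and 3 counts, used as the floor of detection, equalled 0.105 to 0.187 CPM, the read count normalised to a TMM-scaled library size (TMM is the trimmed mean of M values). The mRNA of the targeted gene, Ythdf1, was called higher in KO PBS than in WT PBS (0.4 on the log2 scale, adjusted p = 0.000133), under all 4 scalings, and did not pass the test under LPS (-0.03, adjusted p = 0.724). Ythdf1 stood at 43.6, 45 and 41.9 CPM in WT PBS and 212, 198 and 194 CPM in WT LPS. KO PBS libraries held 55.4, 58.1 and 58.1 CPM and KO LPS libraries 196, 192 and 205 CPM. These are counts of the whole gene, in which a small deletion need not show. Neither the deletion nor the genotype labels were tested here. WT LPS replicate 1 stood apart from its group, with a mean chi-square per gene of 33.5 and 26.2 against replicates 2 and 3, which gave 3.08 between them, and results that rest on it are given with and without it. KO LPS replicates 2 and 3 also differed, with 16.9 between them, and gave 7.43 and 6.1 against replicate 1. All 7 macrophage markers were above the floor in every library, with a summed level of 17100 to 19200 CPM that was mostly Lyz2. Under LPS, the means of Mertk were 233 CPM (WT) and 98.3 CPM (KO label), and those of Csf1r 425 CPM and 295 CPM. Mertk and Csf1r were picked after their values were seen, and the other macrophage markers are not given by group here. The summed level was 17500 to 19200 CPM in WT LPS and 18000 to 19200 CPM in KO LPS. Mast cell, B cell and eosinophil markers summed to at most 1.92 CPM, neutrophil markers to at most 6.63 CPM (nearly all Cxcr2, with Elane and Mpo at or under the floor) and T cell markers to at most 14.1 CPM (up to 13 CPM of it Lck under LPS, with Cd3e, Cd3d and Cd3g at or under the floor). Neutrophil sums were 1.34 to 1.5 CPM in WT PBS, 2.2 to 2.35 CPM in KO PBS, 4.11 to 4.85 CPM in WT LPS and 5.63 to 6.63 CPM in KO LPS. T cell sums were 10.4 to 14.1 CPM in WT LPS against 5.03 to 5.57 CPM in KO LPS, and 2.31 to 2.97 against 1.95 to 2.25 CPM with PBS. The 6 mesothelial markers, all above the floor throughout, summed to 7.58 to 9.17 CPM in WT and 3.76 to 7.52 CPM in KO-labelled libraries. The 6 muscle markers summed to 30 to 35.6 CPM in WT LPS but to only 0.428 to 0.684 CPM in KO LPS, where Myh4 and Tnnt3 were at 0 (17.8 to 23.7 CPM in WT PBS). In KO PBS replicate 3 stood apart, with Acta1 at 7.07, 9.55 and 0.0354 CPM over the 3 libraries, so that with PBS the muscle markers did not follow the label. The part of all these markers in the KO-label comparisons below was not tested.

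With TMM, LPS raised 4 of the 10 genes in WT cells (Cbll1, Hnrnpc, Igf2bp2 and Fmr1) and lowered 0, at an adjusted p under 0.05 (called, in what follows). Across all genes tested 76.7% were called, 36.5% higher and 40.2% lower. In KO-labelled cells LPS raised 6, the same 4 with Zc3h13 and Hnrnpa2b1, and lowered 0, where 79.9% of all genes were called, 38.8% higher and 41.1% lower. The size of change set most of the 10 apart from Igf2bp2 and Fmr1: the median absolute log2 change of the 10 was 0.18 in WT and 0.33 in KO-labelled cells, and over all genes tested it was 0.69 and 0.81. The directions of Virma, Zc3h13, Cbll1, Hnrnpc and Hnrnpa2b1 depend on how libraries are scaled, as does that of Rbm15 in WT. Against TMM, upper-quartile scaling moved the median of all genes by -0.31 (WT) and -0.36 (KO label) on the log2 scale and library totals alone moved it by -0.66 and -0.8. With totals alone all 10 were called under LPS in both genotypes, 2 higher (Igf2bp2 and Fmr1) and 8 lower, so the LPS changes of the other 8 are given relative to the bulk of genes. Of all 12064 genes tested, totals alone called 10470 in WT and 10589 in KO-labelled cells. Of all genes called in WT, 47.6% were higher with TMM, 32.5% with upper-quartile scaling and 21.2% with totals alone, and in KO-labelled cells 48.6%, 33.8% and 20.8%. In bulk samples, less RNA of a gene per cell and fewer of the cells that make it cannot be told apart.

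By the KO label 4 of the 10 genes were called with PBS, Zc3h13, Hnrnpa2b1 and Fmr1 higher and Igf2bp2 lower, and 25.3% of all genes, 12.3% higher and 13% lower. Under LPS Zc3h13, Hnrnpc, Hnrnpa2b1 and Fmr1 were called, all higher with TMM, and 41.4% of all genes, 22.1% higher and 19.3% lower. With upper-quartile scaling or totals alone the LPS calls were 3 higher and 1 lower, Igf2bp2 in place of Hnrnpc. Over all 12064 genes these scalings called 4998 and 5069. The share of higher genes among those called by the KO label was 53.4% under LPS with TMM, 41.6% with upper-quartile scaling and 37.9% with totals alone, and with PBS 48.6%, 42.2% and 61.6% in that order. The median log2 difference of the 10 was 0.08 with PBS and 0.11 under LPS, and 0 over all genes. These comparisons share libraries with the LPS comparisons. In the test of whether the LPS response differed between genotypes (the interaction), 2 of the 10 were called, Igf2bp2 and Fmr1, both higher, and 18% of all genes, 9.78% higher and 8.26% lower. Of all genes so called 54.2% were higher with TMM, 43.1% with upper-quartile scaling and 24.4% with totals alone. The interaction called 1 of the 10 where replicate 3 of either PBS group or replicate 2 of KO PBS was left out, and without WT PBS replicate 3 or KO PBS replicate 1 the PBS comparison called 2. Interaction calls over all genes were then 1584 (without WT PBS replicate 3), 1760 (KO PBS replicate 3) and 1567 (KO PBS replicate 2), against 2176. Those of the PBS comparison were 2200 and 1992, against 3058.

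**Figure D1:**
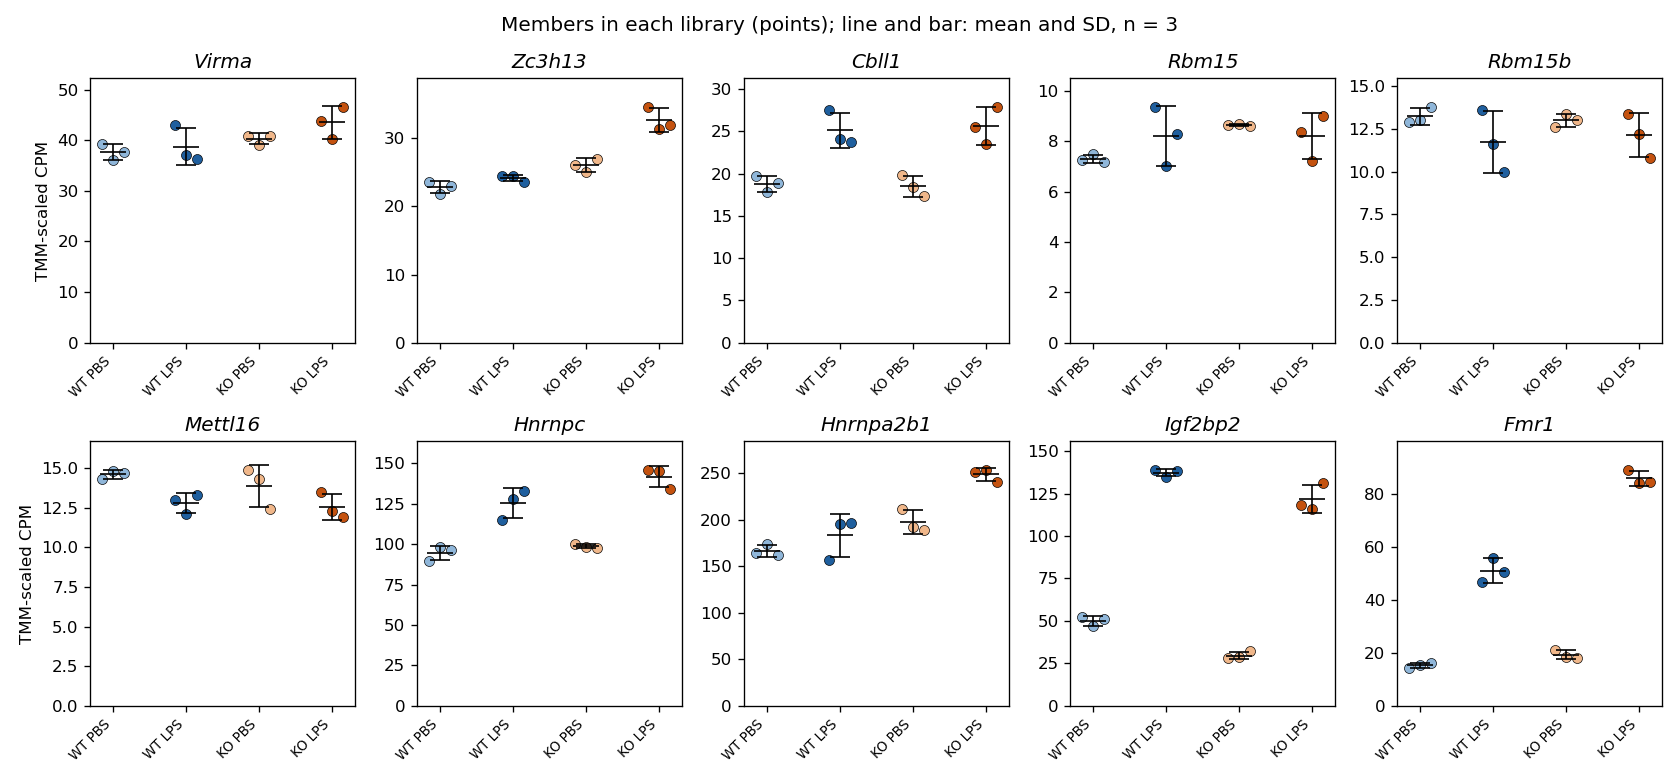
TMM-scaled CPM of the 10 genes in each of the 12 libraries, with WT PBS, WT LPS, KO PBS and KO LPS on the horizontal axis of each panel and every vertical axis starting at 0; points are libraries and the line and bar the mean and SD (n = 3). Igf2bp2 and Fmr1 form 4 groups with no overlap between neighbours, with Igf2bp2 lowest in KO PBS (27.9 to 32.2 CPM) and Fmr1 highest in KO LPS (84.1 to 89 CPM).

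**Figure D2:**
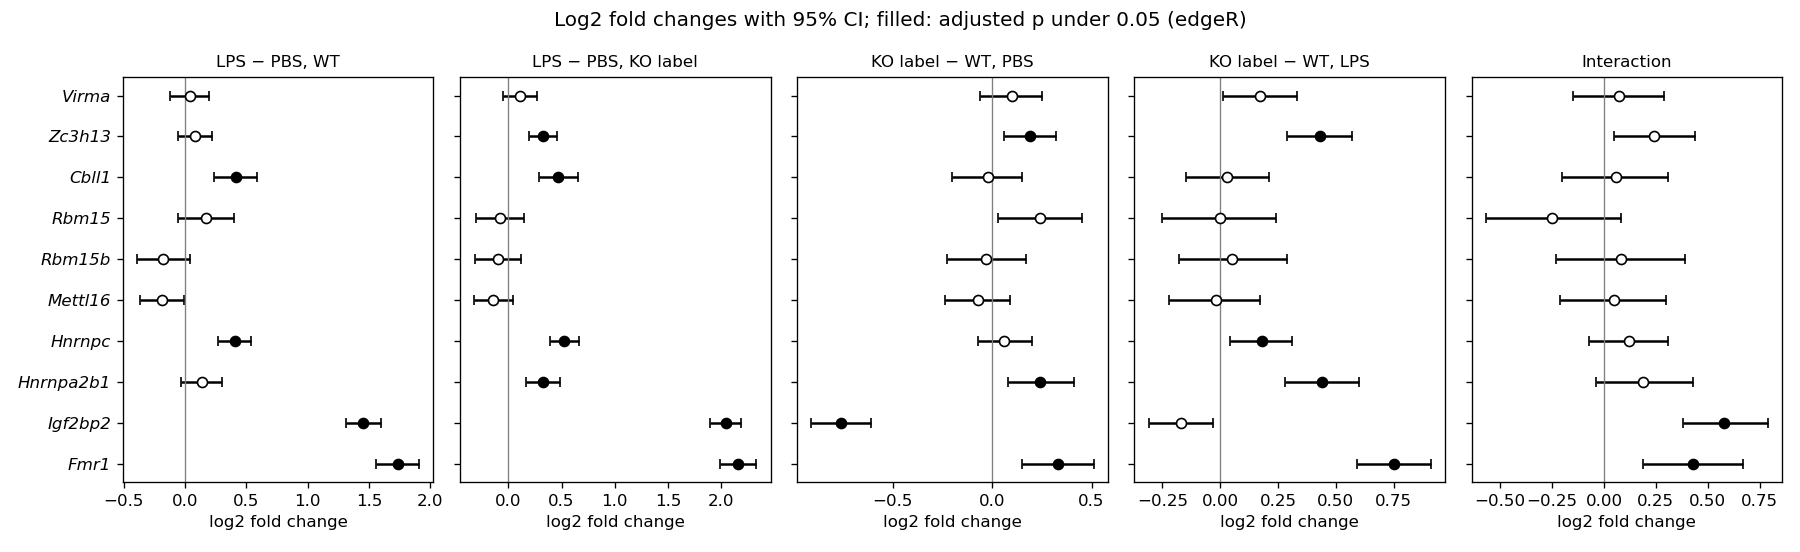
Log2 fold changes of the 10 genes (horizontal axis) with 95% confidence intervals in 5 comparisons on TMM-scaled counts, with their own axis in each panel; filled points have an edgeR adjusted p under 0.05. With library totals alone the LPS changes of all genes but Igf2bp2 and Fmr1 lie below 0.

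Among the writer partners with TMM, Cbll1 moved with LPS, and Zc3h13 with the genotype label and, in KO-labelled cells, also with LPS. Virma, Rbm15 and Rbm15b passed the test in none of the 5 comparisons. Virma (gene ID 66185, chr4:11485958-11551143, plus strand, GRCm38.p6 as for all positions here) was at 39.2, 36.1 and 37.7 CPM in WT PBS and at 43, 37 and 36.2 CPM in WT LPS. In the KO-labelled cells it was at 40.9, 39.1 and 40.9 CPM with PBS and at 43.7, 40.2 and 46.6 CPM with LPS. Each neighbouring pair of these groups overlapped. The LPS change in WT was 0.04 on the log2 scale, with a 95% interval of -0.12 to 0.2 (adjusted p = 0.645), and in KO-labelled cells 0.11 (adjusted p = 0.183). The difference of Virma by the KO label under LPS was 0.17 (adjusted p = 0.0886), and without WT LPS replicate 1, the highest of its group, the difference was 0.25 (adjusted p = 0.00795). Without KO LPS replicate 2 it was 0.22 (adjusted p = 0.037).

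Zc3h13 was higher in KO-labelled than in WT cells with both treatments. The gene (ID 67302, chr14:75284306-75344433, plus strand) stood at 24.5, 24.4 and 23.6 CPM in WT LPS, and KO LPS libraries were at 34.6, 31.4 and 31.9 CPM. With PBS it was at 23.6, 21.8 and 23 CPM in WT and 26.1, 25 and 27 CPM in KO-labelled cells. Every KO LPS library lay above every other library, and the WT groups met at 23.6 CPM. The difference by the KO label was 0.43 under LPS (SE 0.0666, adjusted p = 8.93e-05), a fold of 1.35 that was called under all 20 alternatives, and 0.19 with PBS (adjusted p = 0.0362), a call lost under 6 of them. LPS moved Zc3h13 by 0.08 in WT (adjusted p = 0.26) and by 0.33 in KO-labelled cells (adjusted p = 0.000191), the latter turning to -0.03 with upper-quartile scaling and -0.48 with totals alone, and the difference between these responses did not pass the test (0.24, 95% interval 0.05 to 0.44, adjusted p = 0.08).

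Cbll1, the ubiquitin ligase (ID 104836, chr12:31484829-31500676, minus strand), rose with LPS in both genotypes with TMM and fell with totals alone. Its WT libraries read 19.7, 17.8 and 18.9 CPM with PBS and 27.5, 24.1 and 23.7 CPM with LPS. The KO-labelled libraries read 19.8, 18.4 and 17.3 CPM and 25.5, 23.5 and 27.9 CPM. All 6 LPS libraries were above all 6 PBS libraries. The rise was 0.42 (SE 0.0836, adjusted p = 0.000252) in WT and 0.47 (SE 0.084, adjusted p = 7.08e-05) in KO-labelled cells with TMM, but 0.11 in each with upper-quartile scaling and -0.25 and -0.33 with totals alone. The difference between these rises was 0.06, with a 95% interval of -0.2 to 0.31. The counts as deposited fell, from 498 to 544 in WT PBS to 420 to 475 in WT LPS, at near-equal totals. Part of the Cbll1 exons, 704 bases, is shared with the antisense gene Gm29542, and whether strand was used in counting is not given in the sources used here.

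Rbm15 and Rbm15b, a pair of related RNA-binding subunits, had the lowest levels per kilobase of the writer partners. Rbm15 (ID 229700, chr3:107305511-107334460, minus strand) was at 7.27, 7.48 and 7.18 CPM in WT PBS and 9.37, 7 and 8.29 CPM in WT LPS. KO-labelled libraries were at 8.65, 8.67 and 8.61 CPM with PBS and 8.35, 7.22 and 9.02 CPM with LPS. The KO PBS libraries all lay above the WT PBS libraries, yet the difference of 0.24 (95% interval 0.03 to 0.45) did not pass the test over all genes (adjusted p = 0.0905). Rbm15b (ID 109095, chr9:106880928-106887075, minus strand) was at 12.9, 13 and 13.8 CPM in WT PBS, 13.6, 11.6 and 9.98 CPM in WT LPS. In KO-labelled cells Rbm15b was at 12.6, 13.4 and 13 CPM with PBS and 13.4, 12.2 and 10.8 CPM with LPS. Its LPS groups spread downward from the PBS groups and overlapped them. The LPS change of Rbm15b was -0.18 in WT (adjusted p = 0.121), or -0.3 without WT LPS replicate 1 (adjusted p = 0.0105), and -0.1 in KO-labelled cells (adjusted p = 0.396). Rbm15 carried decimal counts in 12 of 12 libraries, a sign of reads shared with other genes, and Rbm15b shares 75 exon bases with Dcaf1 on the opposite strand.

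Of the core writer, which these genes serve, Wtap rose with LPS in both genotypes under all 4 scalings. Wtap was at 57, 59.4 and 57.2 CPM in WT PBS and 99.4, 121 and 116 CPM in WT LPS, and its LPS change was 0.95 in WT and 1 in KO-labelled cells (0.29 and 0.2 with totals alone). With TMM Mettl3 was called in none of the 5 comparisons, though it was lower with LPS with totals alone (-0.58 in WT and -0.7 in KO-labelled cells), and Mettl14 was 0.58 higher by the KO label under LPS (adjusted p = 0.00492).

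Mettl16 (ID 67493, chr11:74770815-74826855, plus strand) had lower means under LPS in both genotypes, and neither change passed the test. It was at 14.3, 14.8 and 14.7 CPM in WT PBS and 13, 12.1 and 13.3 CPM in WT LPS. KO-labelled libraries were at 14.9, 14.3 and 12.4 CPM with PBS and 13.5, 12.3 and 11.9 CPM with LPS. The WT groups did not overlap and the KO-labelled groups did. The WT change was -0.19 (95% interval -0.37 to -0.01, adjusted p = 0.0509), which passed in 4 of 20 alternatives, among them no filter on low counts (-0.23, adjusted p = 0.0317) and totals alone (-0.85). Decimal counts were present in all 12 libraries.

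METTL16 acts on the SAM cycle through Mat2a. Mat2a encodes the catalytic subunit of the SAM synthetase, and it stood at 76.5, 77.3 and 78.4 CPM in WT PBS and 113, 117 and 124 CPM in WT LPS. In KO-labelled cells it stood at 83.2, 78.9 and 77.9 CPM with PBS and 175, 177 and 175 CPM with LPS. KO LPS was the highest group without overlap. Under LPS Mat2a was 0.58 higher by the KO label (adjusted p = 7.63e-07), and its LPS change differed between the genotypes by 0.53 (adjusted p = 0.000208), with calls kept under the other 3 scalings; the change within WT, 0.61, was -0.06 with totals alone. Of the 6 SAM cycle genes LPS raised 1 and lowered 3 in WT with TMM (36.5% and 40.2% of all genes). In KO-labelled cells it raised 1 and lowered 4 (38.8% and 41.1% of all genes). With totals alone the counts were 0 and 5 in WT and 1 and 5 in KO-labelled cells. Of all 12064 genes totals alone called 10470 (WT) and 10589 (KO label), 21.2% and 20.8% of them higher. By the KO label 1 was higher and 2 lower with each treatment, where 25.3% (PBS) and 41.4% (LPS) of all genes were called. With PBS these included Mat2b (0.24) and, the lowest, Ahcy (-0.32). In their LPS response 4 differed between genotypes, against 18% of all genes. Mat2a and Ahcy (0.59, not called with totals alone) differed upward and Mtr (-0.5) and Mat2b (-0.33) downward. Mtr, methionine synthase, fell the most of the 6 with LPS, by 1.59 in WT and 2.09 in KO-labelled cells.

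The hnRNP readers had the highest levels per kilobase of the 10, and both were higher by the KO label under LPS with TMM. Hnrnpc (ID 15381, chr14:52073377-52104039, minus strand) was at 89.6, 98.1 and 96.1 CPM in WT PBS and 115, 128 and 133 CPM in WT LPS. KO-labelled cells gave 100, 98.4 and 97.7 CPM with PBS and 146, 145 and 134 CPM with LPS. The LPS libraries lay above the PBS libraries in each genotype, and the lowest KO LPS library only just cleared the highest WT LPS library. LPS raised Hnrnpc by 0.41 (SE 0.0637, adjusted p = 2.05e-05) in WT and 0.52 (SE 0.0636, adjusted p = 9.65e-07) in KO-labelled cells with TMM, against -0.26 and -0.28 with totals alone, and in WT the call was also lost with upper-quartile scaling (0.1). By the KO label it was 0.18 higher under LPS (adjusted p = 0.0336), a call lost in 9 of 20 alternatives, among them leaving out WT LPS replicate 1 (0.12, adjusted p = 0.0965), and 0.06 higher with PBS (adjusted p = 0.521). Hnrnpc carried decimals in 12 of 12 libraries.

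Hnrnpa2b1 (ID 53379, chr6:51460434-51470048, minus strand) was higher in KO-labelled cells with both treatments. In WT it read 164, 174 and 162 CPM with PBS and 157, 196 and 197 CPM with LPS, where replicate 1 was below the PBS libraries and the others above. In KO-labelled cells it read 212, 192 and 189 CPM with PBS and 252, 254 and 241 CPM with LPS. The KO LPS libraries were the highest 3 of the 12. The KO-label difference was 0.44 under LPS (SE 0.0774, adjusted p = 0.000287), a fold of 1.36 called under all 20 alternatives, and 0.24 with PBS (adjusted p = 0.0283), a call lost in 4. LPS changed it by 0.14 in WT (adjusted p = 0.12), by 0.23 without WT LPS replicate 1 (adjusted p = 0.000899), by -0.17 with upper-quartile scaling and by -0.53 with totals alone. In KO-labelled cells the change was 0.33 (adjusted p = 0.000863), or -0.03 and -0.47 with those 2 scalings. The 2 responses did not differ at the threshold (0.19, 95% interval -0.04 to 0.43, adjusted p = 0.245).

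Hnrnpc and Hnrnpa2b1 sit in a family of which 22 other genes were tested. By the KO label, 14 of the 22 were higher and 1 lower under LPS (22.1% and 19.3% of all genes). With PBS 8 were higher and 3 lower (12.3% and 13% of all genes). The median difference was 0.26 under LPS and 0.13 with PBS on the log2 scale, against 0 over all genes. Other scalings gave 13 and 2 or 11 and 2 under LPS, and 5 and 3 or 11 and 3 with PBS. Over all genes these scalings, upper-quartile and totals alone, called 4998 and 5069 under LPS (41.6% and 37.9% of them higher). With PBS they called 3035 and 3232 (42.2% and 61.6% of them higher). The PBS count of 11 calls with TMM fell to 5 without WT PBS replicate 1 or KO PBS replicate 1, to 7 without WT PBS replicate 2 and to 6 without WT PBS replicate 3. Calls over all genes fell too, from 3058 to 2066 without WT PBS replicate 1 and to 1992 without KO PBS replicate 1. They were 2252 without WT PBS replicate 2 and 2200 without WT PBS replicate 3. Syncrip, a translation and splicing regulator, was the most raised under LPS (0.57, adjusted p = 1.02e-06) and Hnrnph1 with PBS (0.39, adjusted p = 0.00154), while the splicing repressor Ptbp1 was lower with both treatments (-0.21 and -0.26), and these 4 calls held under the 3 other scalings. With LPS in WT, 11 of the 22 were higher and 4 lower (36.5% and 40.2% of all genes). These counts became 7 and 10 with upper-quartile scaling and 1 and 18 with totals alone. Of all 12064 genes those scalings called 9666 (32.5% of them higher) and 10470 (21.2% of them higher). Hnrnph2 rose by 1.18 and 1.27 in the 2 genotypes and Hnrnpl fell by 1.57 and 1.73, each under all 4 scalings.

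Igf2bp2 was raised by LPS in both genotypes, from a lower resting level in KO-labelled cells. The gene has ID 319765 and lies at chr16:22059009-22163299. WT libraries were at 52.2, 46.9 and 51 CPM with PBS and 139, 135 and 138 CPM with LPS. KO-labelled libraries were at 27.9, 28.7 and 32.2 CPM with PBS and 118, 116 and 131 CPM with LPS. The 4 groups were fully separate, in the order WT LPS, KO LPS, WT PBS, KO PBS. With PBS the KO-labelled cells were lower by a fold of 1.69 (log2 -0.76, SE 0.0703, adjusted p = 1.34e-06), called under all 20 alternatives, which ran from -0.8 to -0.69. Under LPS the difference was -0.17 (SE 0.067, adjusted p = 0.0513), and 7 of the 20 alternatives called it.

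The LPS rise of Igf2bp2 was 2.74-fold in WT (log2 1.45, SE 0.0687, adjusted p = 3.99e-12) and 4.11-fold in KO-labelled cells (log2 2.04, SE 0.0711, adjusted p = 5.29e-14). It was present in the counts as deposited, 1310 to 1444 rising to 2364 to 2439 in WT and 798 to 909 rising to 1897 to 2102 in KO-labelled cells, and was called with totals alone (0.79 and 1.24). The 2 rises differed by 0.58 (95% interval 0.38 to 0.79, adjusted p = 0.000632), a call kept under all 19 alternatives. Fibroblast markers moved the same ways as Igf2bp2: the 6 (5 above the floor in all libraries, Lum at or under it) summed to 75.1 to 88.6 CPM in WT PBS, 119 to 132 CPM in WT LPS, 32.9 to 46.2 CPM in KO PBS and 57 to 69.5 CPM in KO LPS. The T cell sums given above, under LPS mostly Lck, had the group order of Igf2bp2, whereas the fibroblast sums stood higher in WT PBS than in KO LPS. The part of either list in the Igf2bp2 result was not tested. The relatives of Igf2bp2 were scarce, with Igf2bp3 at 0.597 to 2.66 CPM and Igf2bp1 at 0 to 1.17 CPM over the 12 libraries.

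Fmr1 had the largest LPS change of the 10 and rose further in KO-labelled cells. The gene has ID 14265 and lies at chrX:68678536-68717963. WT libraries were at 14.3, 15.5 and 16 CPM with PBS and 46.5, 55.8 and 50.4 CPM with LPS. KO-labelled libraries were at 21.1, 18.5 and 17.9 CPM with PBS and 89, 84.1 and 84.3 CPM with LPS. The 4 groups were separate, and every KO LPS library stood above every WT LPS library. LPS raised it 3.33-fold in WT (log2 1.74, SE 0.0822, adjusted p = 4.11e-12) and 4.48-fold in KO-labelled cells (log2 2.16, SE 0.08, adjusted p = 1.19e-13), and the rises stood at 1.08 and 1.36 with totals alone. Deposited counts went from 395 to 449 up to 804 to 980 in WT and from 504 to 602 up to 1356 to 1450 in KO-labelled cells.

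By the KO label Fmr1 was 1.69-fold higher under LPS (log2 0.75, SE 0.0763, adjusted p = 1.51e-06) and 1.25-fold higher with PBS (log2 0.33, SE 0.0839, adjusted p = 0.00941), both called under all 20 alternatives. The LPS responses differed by 0.43 (95% interval 0.19 to 0.67, adjusted p = 0.0164). That call was lost with totals alone (0.29, adjusted p = 0.103) and without WT PBS replicate 3 (0.39, adjusted p = 0.054), KO PBS replicate 2 (0.37, adjusted p = 0.0647) or KO PBS replicate 3 (0.35, adjusted p = 0.0653). The neutrophil sums given above, nearly all Cxcr2 (means of 1.4, 4.12, 2.25 and 5.36 CPM in WT PBS, WT LPS, KO PBS and KO LPS), had the group order of Fmr1, and their part in its changes was not tested. The small gene Gm27838 shares 72 exon bases with Fmr1 on the same strand.

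The closest relatives of Fmr1 are Fxr1 and Fxr2, which also bind mRNA. Fxr1 was at 30, 29.6 and 29.6 CPM in WT PBS and 59.9, 76.6 and 67.4 CPM in WT LPS. Its KO-labelled libraries gave 33.6, 31.5 and 32.1 CPM with PBS and 100, 90.2 and 96.3 CPM with LPS. It had the order of groups seen for Fmr1, with an LPS change of 1.19 in WT and 1.56 in KO-labelled cells and a difference by the KO label of 0.49 under LPS (adjusted p = 9.48e-05). The responses of Fxr1 differed by 0.37 (adjusted p = 0.0288), not called with upper-quartile scaling or totals alone. Fxr2 rose by 0.2 and 0.4 with TMM and turned to -0.46 and -0.4 with totals alone. Of 7 genes for partners of FMRP, LPS raised 5 and lowered 1 in WT with TMM (36.5% and 40.2% of all genes). In KO-labelled cells it raised 6 and lowered 1 (38.8% and 41.1% of all genes). With totals alone the counts were 3 and 3 in each genotype. Of all 12064 genes totals alone called 10470 (WT) and 10589 (KO label), 21.2% and 20.8% of them higher. G3bp2, of stress granules, rose by 1.54 and 1.38 and Cyfip1, of the actin-regulating WAVE complex, by 0.98 and 1.21, while Cyfip2 fell by 0.75 and 0.64, each under all 4 scalings. Nufip2 was 0.52 higher by the KO label under LPS and 0.32 with PBS.

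**Figure D3:**
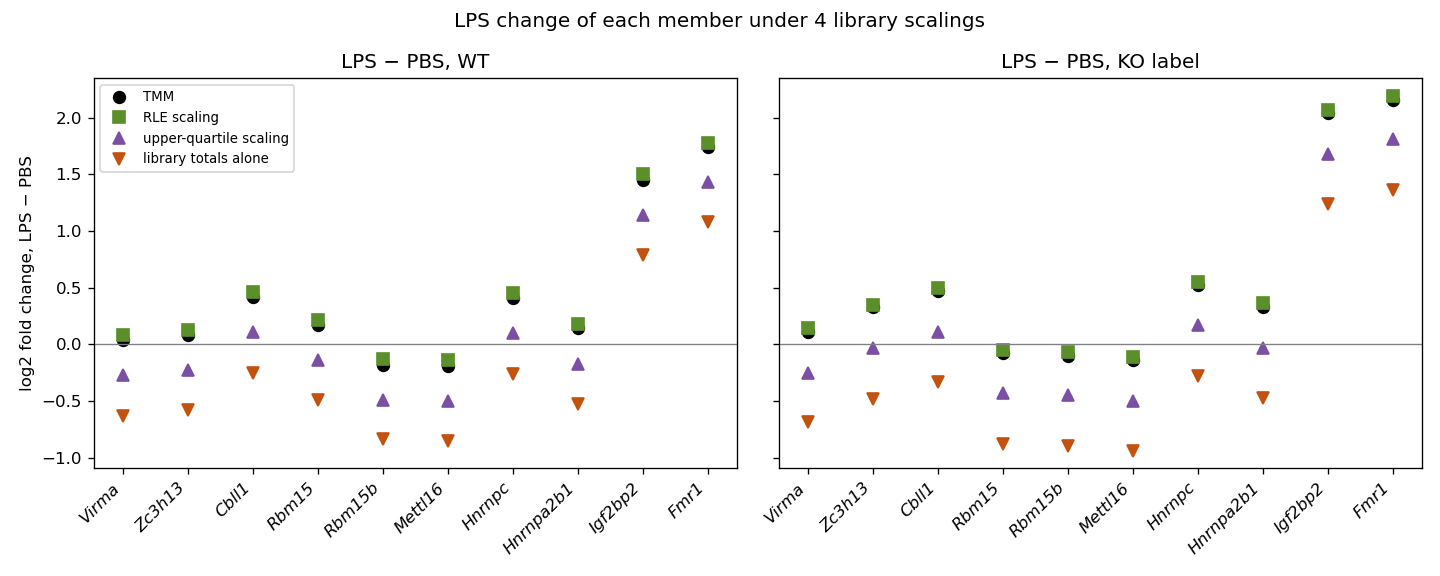
Log2 fold change with LPS (vertical axis) of the 10 genes under TMM, RLE, upper-quartile and library-total scaling, in WT (left) and KO-labelled cells (right). Igf2bp2 and Fmr1 stay above 0 under all 4 scalings, at 0.79 or more, whereas the other 8 lie below 0 with library totals alone.

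Of the 24 other m6A genes, 4 were higher and 1 lower by the KO label with PBS (12.3% and 13% of all genes). Under LPS 9 were higher and 3 lower (22.1% and 19.3% of all genes), or 7 and 3 with totals alone. Over all 12064 genes totals alone called 5069 by the KO label under LPS, 37.9% of them higher. With LPS in WT 15 rose and 4 fell (36.5% and 40.2% of all genes), which became 8 and 14 with totals alone. Over all genes totals alone then called 10470, 21.2% of them higher. The YTH readers Ythdc1 and Ythdf3 were among the genes higher by the KO label, Ythdf3 by 0.39 with PBS and 0.52 under LPS, next to Ythdf1 itself (0.4 with PBS), and Snd1, a nuclease-domain reader, was lower by 0.41 with both. Among other methyltransferases Mettl4 fell by 0.94 and 1.11 with LPS under all 4 scalings, and Pcif1, the cap m6A writer, rose by 0.62 and 0.44 with TMM but stood at -0.04 and -0.37 with totals alone. Lrpprc was the most lowered of the non-YTH readers with LPS (-0.74 and -0.59), Zcchc4 was 0.32 higher by the KO label under LPS and Rbmx 0.21 higher with PBS, the last not called with upper-quartile scaling. Both erasers fell with LPS under all 4 scalings, Alkbh5 by 0.86 and 0.89 and Fto by 0.4 and 0.66 with TMM. In the difference between responses 1 of the 24 was called higher, Fxr1, and 1 lower, Ythdf1 (-0.42), against 9.78% and 8.26% of all genes.

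**Figure D4:**
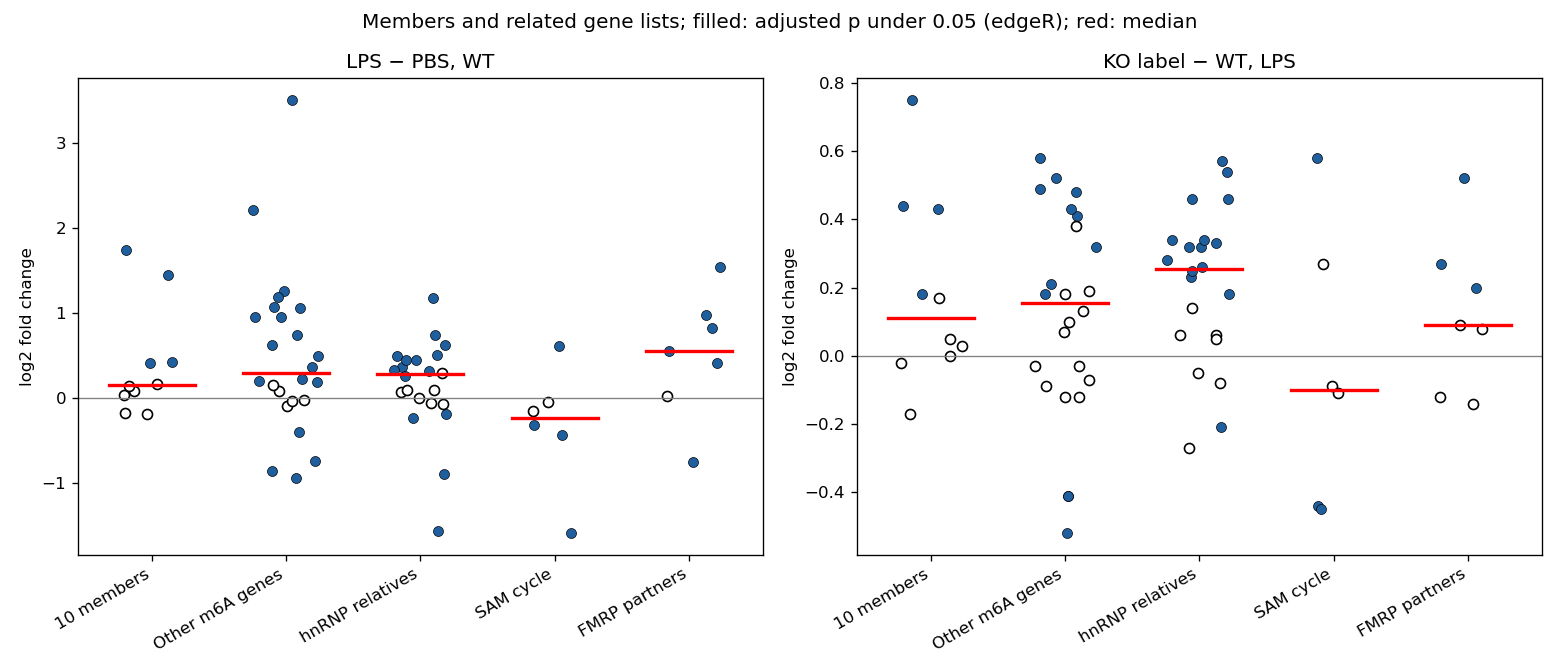
Log2 fold changes (vertical axes, TMM-scaled) with LPS in WT (left) and by the KO label under LPS (right) for the 10 genes, 24 other m6A genes, 22 hnRNP relatives, 6 SAM cycle genes and 7 FMRP partners; each point is a gene, filled where its edgeR adjusted p is under 0.05, and the red line is the median of the list. The hnRNP relatives lie mostly above 0 in the right panel (14 higher, 1 lower, against 22.1% and 19.3% of all genes). In the left panel 11 are higher and 4 lower with TMM (36.5% and 40.2% of all genes), but 1 and 18 with library totals alone. Totals alone called 10470 of all 12064 genes there, 21.2% of them higher.

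Levels between genes were set side by side per kilobase of merged exons, from the GENCODE annotation of GRCm38. In WT PBS, Hnrnpa2b1 (25.4 CPM per kb) and Hnrnpc (21.9) led, followed by Igf2bp2 (6.75), Virma (5.28), Cbll1 (4.69), Zc3h13 (3.63), Rbm15b (2.03), Fmr1 (1.71), Mettl16 (1.06) and Rbm15 (0.985). The range from first to last was wide, and the writer partners lay in the middle and at the foot of it. In KO LPS the order from the top was Hnrnpa2b1 (37.8), Hnrnpc (32.9), Igf2bp2 (16.5) and Fmr1 (9.57), so that Fmr1 passed Virma (6.09), Cbll1 (6.39) and Zc3h13 (5.19), while Mettl16 (0.912) and Rbm15 (1.1) stayed lowest. Merged exons count every annotated exon, so a gene whose longest forms are not used in these cells is set too low on this scale.

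**Figure D5:**
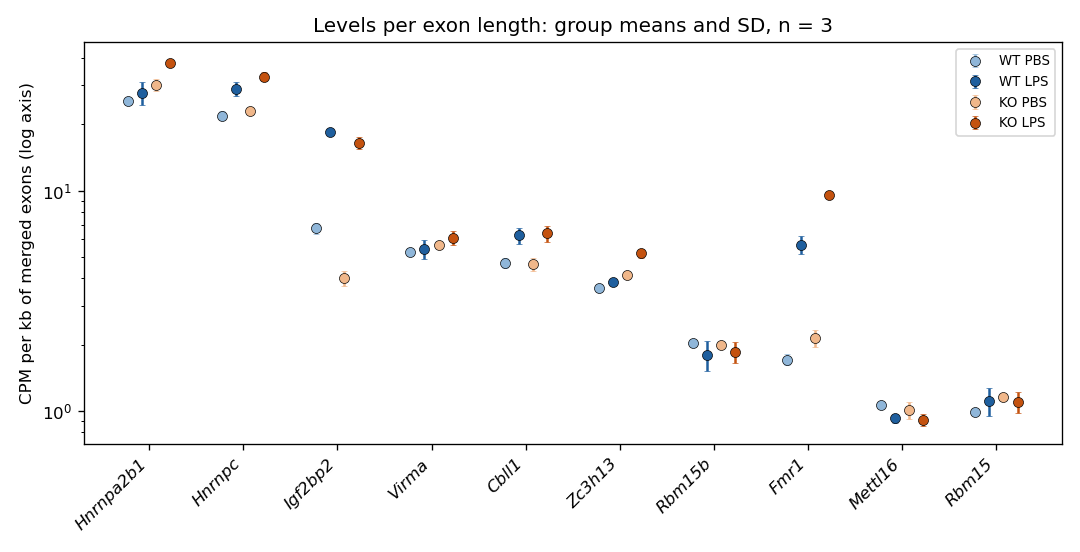
Mean level of each gene in the 4 groups in CPM per kilobase of merged exons (log axis), with SD bars over 3 libraries, ordered by the WT PBS level. Fmr1 climbs from 1.71 in WT PBS to 9.57 in KO LPS, and Rbm15 and Mettl16 stay near 1.

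The genes most alike to each of the 10 over the 12 libraries were found by Pearson's r of log2 CPM among 12063 others. The libraries fall into 4 groups and are shared by all pairs. A high r can come from like group means or from a like spread of libraries within groups. The order of groups was not always shared. Rbm15b, for one, had the order WT PBS, KO PBS, KO LPS, WT LPS, and its closest gene Col16a1 the order WT PBS, WT LPS, KO PBS, KO LPS. Fmr1 was closest to Abi1 (0.999), a subunit of the WAVE complex, and Ptprc (0.998), which encodes CD45, and Igf2bp2 to the chaperonin subunit Cct7 (0.998) and Slamf8 (0.997). Hnrnpc was closest to Snrnp27 (0.993) and Eif1ax (0.992) and Hnrnpa2b1 to Hnrnpa3 (0.981) and Srsf5 (0.98), both splicing factors' genes. The values for Cbll1 were 0.981 (Fchsd2) and 0.979 (Dennd5a), for Zc3h13 0.973 (Chm) and 0.968 (Cstf2t), and for Virma 0.957 (Gapvd1) and 0.948 (Zbtb43). The values were lower for Rbm15b, 0.899 (Col16a1) and 0.898 (Ighmbp2), and for Rbm15, 0.889 (Rftn1) and 0.868 (Rnf216). Those for Mettl16 were 0.877 (Hdhd3) and 0.872 (Slc7a4). Col16a1 (0.0564 to 0.752 CPM), Hdhd3 (0.124 to 1.19 CPM) and Slc7a4 (0 to 0.823 CPM) were under the floor of detection in some libraries. Between the 10 themselves r was 0.98 for Hnrnpc with Fmr1, 0.88 for Zc3h13 with Hnrnpa2b1 and 0.77 for Virma with Zc3h13.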

How the data were processed

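Single-end reads came from a BGISEQ-500. The deposited values are expected counts per gene (estimated counts, not whole numbers), unscaled. The submitters' processing notes name Bowtie2, RSEM 1.3.1 and GRCm38.p6, whereas the methods name STAR and HTSeq. In each library 24.6% to 26.9% of the values carried decimals. Whether counting used strand is not given in the sources used here. The labels call the libraries of a group biological replicates.

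Values were rounded to whole counts. In R 4.3.3, edgeR 4.0.16 fitted 1 quasi-likelihood model (filterByExpr, TMM, robust, 1 mean per group) to all 12 libraries, and 5 contrasts were tested two-sided with Benjamini-Hochberg adjustment over the 12064 genes tested (threshold 0.05). The typical biological coefficient of variation was 6.99%. Standard errors were the log2 fold change over the root of F. The 3-count floors cover counting error only. The code was checked on simulated data.

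The genes, the lists around them and the tests were chosen with earlier results of these data known. Genes named beside the 10 are, per list and contrast, called genes with the largest change each way (at least 5 CPM in the higher group), the 2 most alike per gene, and Mat2a, Fxr1 and Fxr2. Mettl3, Igf2bp1, Igf2bp3, Ythdc1, Cyfip1, single marker genes and genes overlapping the 10 were named after their values were seen. Alternatives were RLE, upper-quartile and no scaling factor, 2 other filters, DESeq2 1.42.0, fits to only the groups compared, the replicate number as a block and each library left out. Gene numbers were matched to GENCODE vM21 and RefSeq tables of GRCm38. Raw reads, exons and proteins were not analysed here.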

Additional observations from a re-analysis of the deposited data

Results flagged for a closer look

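The LPS response of Igf2bp2 differed between the genotypes by 0.58 on the log2 scale (edgeR interaction term, adjusted p = 0.000632), since its rise was larger from a lower resting level in the KO-labelled cells, and all 3 KO PBS libraries lay below all 3 WT PBS libraries. The LPS response of Fmr1 differed by 0.43 (adjusted p = 0.0164), with KO-labelled libraries above WT libraries under both treatments. T cell marker sums, under LPS mostly Lck, had the group order of Igf2bp2, and neutrophil marker sums, nearly all Cxcr2, that of Fmr1. Cd3e, Cd3d and Cd3g, and Elane and Mpo, were at or under the floor, so these sums need not follow those cell types. Fibroblast sums, like Igf2bp2, were higher with LPS and lower by the KO label. On a fold scale neither the T cell nor the neutrophil sums shared the larger rise in KO-labelled cells. Fibroblast sums rose by like folds in both genotypes, from 75.1 to 88.6 CPM up to 119 to 132 CPM in WT. In KO-labelled cells they went from 32.9 to 46.2 CPM up to 57 to 69.5 CPM. T cell sums were 10.4 to 14.1 CPM in WT LPS (2.31 to 2.97 with PBS) and 5.03 to 5.57 CPM in KO LPS (1.95 to 2.25 with PBS). Neutrophil sums were 4.11 to 4.85 CPM in WT LPS (1.34 to 1.5 with PBS) and 5.63 to 6.63 CPM in KO LPS (2.2 to 2.35 with PBS). The part of these markers was not tested.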

How the results depend on the processing

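Of the values recomputed, 882 of single genes and 268 counts of calls held, 52 changed sign, 30 passed the threshold anew, 26 fell short of it and 29 counts moved by over 1.5 times. The LPS rises of Igf2bp2 and Fmr1, the PBS difference of Igf2bp2 and the differences by the KO label of Fmr1 (both treatments), Zc3h13 and Hnrnpa2b1 (both under LPS) kept direction and call in every alternative run. With library totals alone the LPS calls among the 10 became 10 in each genotype, and the interaction calls 1. Of all 12064 genes it called 10470 (LPS, WT), 10589 (LPS, KO-labelled) and 2572 (interaction). In WT the LPS change was then -0.25 (Cbll1), -0.53 (Hnrnpa2b1), -0.26 (Hnrnpc), -0.49 (Rbm15), -0.63 (Virma) and -0.58 (Zc3h13), and in KO-labelled cells -0.33 (Cbll1), -0.47 (Hnrnpa2b1), -0.28 (Hnrnpc), -0.69 (Virma) and -0.48 (Zc3h13). The interaction was then -0.08 (Cbll1), -0.02 (Hnrnpc), -0.09 (Mettl16), -0.05 (Rbm15b) and -0.07 (Virma), and the KO-label difference 0.02 (Cbll1) and 0.02 (Rbm15b) with PBS and -0.06 (Cbll1) and -0.03 (Rbm15b) under LPS. Upper-quartile scaling gave LPS changes in WT of -0.17 (Hnrnpa2b1), -0.14 (Rbm15), -0.27 (Virma) and -0.23 (Zc3h13), in KO-labelled cells -0.03 (Hnrnpa2b1), -0.25 (Virma) and -0.03 (Zc3h13), and KO-label differences under LPS of -0.04 (Cbll1) and -0.01 (Rbm15b). With it 2 of the 10 were called by the KO label with PBS, and 1 other m6A gene and 1 hnRNP relative in the interaction. Of all 12064 genes it called 3035 by the KO label with PBS and 2161 in the interaction. The TMM factors, which totals alone leave out, were 1.2583 to 1.3144 with PBS and 0.7441 to 0.808 with LPS. Upper-quartile factors are not given here.

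A fit to only the libraries compared called 9 other m6A genes and 17 hnRNP relatives by the KO label with PBS. Over all genes that fit called 4627 of 11658 tested, against 3058 of 12064 in the main fit. The cause of these larger counts was not tested. Leaving out 1 library at a time, the calls among the 10 ran from 1 to 2 (interaction), 2 to 4 (KO label, PBS), 3 to 5 (KO label, LPS), 6 to 7 (LPS, KO-labelled) and 4 to 6 (LPS, WT). Other m6A genes ran from 1 to 3 (interaction) and hnRNP relatives from 1 to 4 (interaction) and 5 to 13 (KO label, PBS). Over all genes tested, the calls ran from 1551 to 2685 (interaction), 1992 to 3896 (KO label, PBS) and 4109 to 5021 (KO label, LPS). With LPS they ran from 9307 to 9877 (KO-labelled) and 8912 to 9352 (WT). The lone interaction call came without any PBS library but WT PBS replicate 2 or 3 for the hnRNP relatives, and without any PBS library, WT LPS replicate 3 or KO LPS replicate 1 for the other m6A genes. Values near 0 changed sign there, and their ranges were -0.02 to 0.13 (interaction), -0.03 to 0.1 (KO label, LPS) and -0.06 to 0.04 (KO label, PBS) for Cbll1, -0.05 to 0.09, -0.08 to 0.01 and -0.1 to 0.02 for Mettl16, and -0.02 to 0.2, -0.05 to 0.17 and -0.04 to 0.02 for Rbm15b. Rbm15 ran from -0.11 to 0.1 (KO label, LPS) and -0.15 to 0.01 (LPS, KO-labelled), and Virma from -0.04 to 0.1 (LPS, WT).

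Replicate numbers did not pair the libraries (r of same-numbered deviations -0.0758 to 0.127, 1 of 18 over 0.1, and 8 of 18 correlating best with their own number). With the replicate number as a block, the calls among the 10 were 4, 6, 4, 5 and 2 in the order WT LPS, KO-labelled LPS, KO label with PBS, KO label under LPS and interaction, and Igf2bp2 was called by the KO label under LPS (-0.17, adjusted p = 0.0338). Over all 12064 genes the calls were 9267, 9631, 2969, 5030 and 2132 in that order.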
